A study of Oryza sativa with 6 samples.

Results

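Phenylalanine ammonia-lyase (PAL) removes ammonia from phenylalanine to give cinnamic acid, the entry step of the phenylpropanoid pathway. Lignin, flavonoids and the hydroxycinnamic acids of grass cell walls are made from that product, and part of the plant hormone salicylic acid can be as well. Plants usually carry several PAL genes, and in grasses the enzyme can also use tyrosine. The 9 rice loci described here were taken from a given list of PAL locus numbers, out of 57839 loci in the tables. All 9 are in the tables, and 8 had enough counts to be tested. The locus numbers place 4 of them in a run on chromosome 2 (LOC_Os02g41630, LOC_Os02g41650, LOC_Os02g41670 and LOC_Os02g41680) and 2 close together on chromosome 4 (LOC_Os04g43760 and LOC_Os04g43800). The other 3 are LOC_Os05g35290 on chromosome 5, LOC_Os11g48110 on chromosome 11 and LOC_Os12g33610 on chromosome 12. The files pair no locus with a name, so the identity of the 9 loci as PAL genes rests on the list, and members are called by locus number.

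The series asked how autophagy bears on flowering time in rice. It compared mature leaves of wild-type plants (WT) with those of the mutant line osatg5-1, both taken from field-grown plants under natural long days at tillering, the stage at which side shoots form. ATG5 belongs to the core machinery of autophagy, the route by which cells send parts of themselves into the vacuole to be broken down. Each genotype has 3 libraries of leaf mRNA. The labels give neither the lesion of the osatg5-1 allele nor the number of plants behind a library, and do not say whether replicates were separate plants. Every p-value below thus reflects no more than how far these libraries differed from each other, a spread that may be technical.

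The libraries held 30927816 to 39351357 counts, and the PAL loci together took 0.0246% to 0.0410% of them. Across tested loci, log2 levels correlated at 0.990 to 0.993 between libraries of the same genotype and at 0.974 to 0.981 between genotypes. The transcript of the mutated gene and leaf markers were not analysed here, because their loci are not named in the files.

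In osatg5-1 leaves the transcripts of 4 of the 9 PAL loci fell, by 2.11-fold to 3.86-fold. They were those of LOC_Os02g41630, LOC_Os02g41650 and LOC_Os02g41680 in the chromosome 2 run and of LOC_Os05g35290. The other 5 were not called in either direction. One of them, LOC_Os04g43800, was at higher levels in all 3 osatg5-1 libraries than in any WT library but missed the threshold. A locus is called here at an adjusted p under 0.05 in edgeR's quasi-likelihood test over all 23074 tested loci. Over all tested loci, 8.21% were called lower and 8.23% higher, and among those of at least 10 CPM on average 10.6% were called lower. CPM values are counts scaled to library size, here with TMM factors. Among the 8 tested PAL loci 4 were called lower and 0 higher, and 1 was higher at an unadjusted p under 0.05. DESeq2 likewise called 0 higher, while limma-voom called 1. As a description, the median log2 fold change of the 8 tested PAL loci was -0.49, against 0.0016 over all tested loci. Of the 8, 4 were below 0 and 4 above. The median falls in the gap between the called falls, at -1.08 or lower, and the rest, at 0.09 or higher. It thus describes no single locus and no shift of the whole family. In whole leaves, fewer cells that express a gene and less RNA per cell cannot be told apart.

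**Figure D1:**
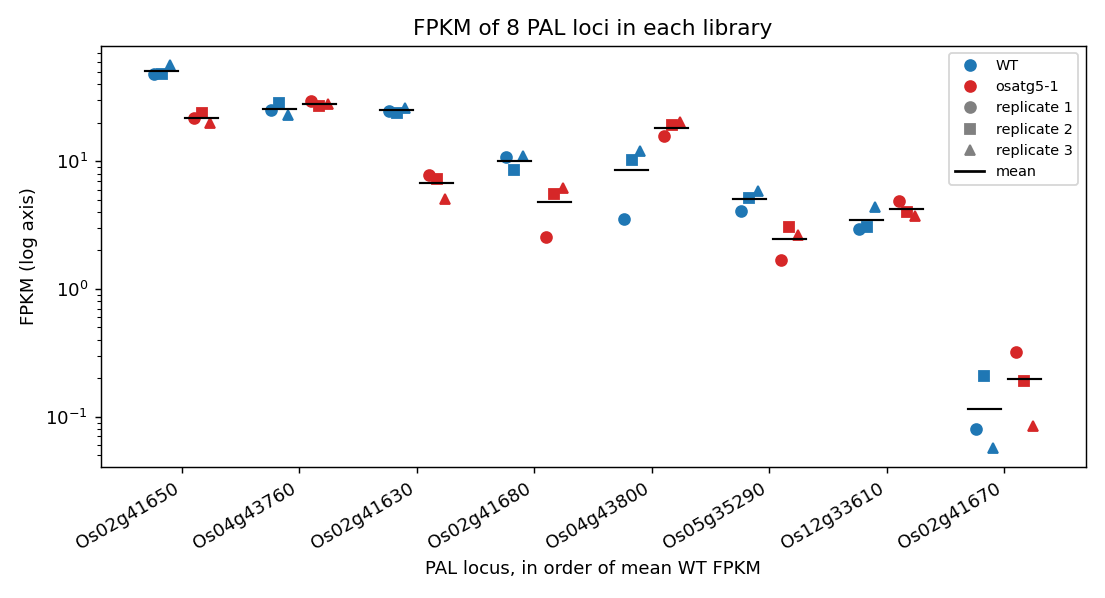
FPKM on a log axis for 8 of the 9 PAL loci in each library (WT blue, osatg5-1 red, marker shape for the replicate, black line for the mean of 3 libraries). LOC_Os11g48110 is left out because it is at 0 in 4 libraries. The blue and red points are fully separated at LOC_Os02g41650, LOC_Os02g41630, LOC_Os02g41680 and LOC_Os05g35290, with WT higher, and at LOC_Os04g43800, with osatg5-1 higher.

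LOC_Os02g41650 was the most abundant PAL transcript of WT leaves. It was read at 145, 146 and 172 CPM in WT replicates 1 to 3 and at 63.4, 70.2 and 61.2 CPM in osatg5-1. The lowest WT library was thus far above the highest mutant library. Its transcript fell by 2.37-fold (95% interval 2.07 to 2.72), a log2 fold change of -1.25 ± 0.09 (SE, n = 3 per genotype, edgeR adjusted p = 2.17e-05). Per length, it went from 50.9 ± 4.92 to 21.8 ± 2.09 FPKM (SD, n = 3 each). FPKM values, counts scaled to the length of the gene model and the depth of the library, are used here wherever levels of different loci are compared.

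LOC_Os02g41630, the first locus of the run, showed the steepest fall among the called PAL loci. Its WT libraries stood at 74.4, 72.0 and 79.7 CPM, its osatg5-1 libraries at 22.8, 21.2 and 14.7 CPM. The WT libraries lay close together and the mutant libraries were all far below them. The fall was 3.86-fold (95% interval 3.11 to 4.78; log2 fold change -1.95 ± 0.14, SE, edgeR adjusted p = 2.17e-05), larger than 92.2% of all called falls in the leaf transcriptome. The fitted fall of LOC_Os02g41650, the next PAL locus, was smaller. The ratio of LOC_Os02g41650 to LOC_Os02g41630 within a library, in FPKM, was 1.93, 2.01 and 2.15 in WT and 2.77, 3.27 and 3.91 in osatg5-1. These ratios do not depend on how libraries are scaled, and the genotypes did not overlap. The difference gave p = 0.1 in a two-sided exact permutation test, which is the smallest value that 3 against 3 libraries allow. Groups that do not overlap always give this value, so the test adds nothing to the separation. In all, 2 such ratios were tested, chosen with results of these data known, and the adjusted p is also 0.1.

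LOC_Os02g41680, the last locus of the run, was less abundant and more variable. WT replicates were at 31.6, 24.8 and 32.3 CPM, and osatg5-1 replicates at 7.20, 15.7 and 17.4 CPM. The genotypes did not overlap, but replicate 1 of the mutant was far below the other two. The fall was 2.19-fold (95% interval 1.47 to 3.25; log2 fold change -1.13 ± 0.26, SE, edgeR adjusted p = 0.0139). Without osatg5-1 replicate 1 the log2 fold change was -0.83, still called (edgeR adjusted p = 0.00376).

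LOC_Os02g41670 lies between LOC_Os02g41650 and LOC_Os02g41680 in the numbering but was hardly read. It had 8, 20 and 6 counts in the WT libraries and 30, 20 and 10 in the osatg5-1 libraries, or 0.115 ± 0.0815 and 0.198 ± 0.119 FPKM (SD, n = 3 each). The genotypes overlapped, and the log2 difference of 0.64 had a 95% interval from -0.69 to 1.97 (edgeR adjusted p = 0.517). At this depth neither a rise nor a fall could be shown. The sources used here do not describe how reads of near-identical PAL copies were counted. If such reads were split or moved between loci, so few counts could also stem from its neighbours. The counts, falls and ratios of the other loci of the run could then be affected as well, and their falls might not be separate. The counts and ratios of the chromosome 4 pair, and the counts of the remaining PAL loci, could be affected in the same way. None of this was tested.

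The transcript of LOC_Os05g35290, on chromosome 5, also fell. WT libraries were at 11.8, 14.9 and 17.1 CPM and osatg5-1 libraries at 4.68, 8.53 and 7.44 CPM. The groups were separate, and mutant replicate 1 was again the lowest of all libraries, as at LOC_Os02g41680. The fall was 2.11-fold (95% interval 1.53 to 2.92; log2 fold change -1.08 ± 0.21, SE, edgeR adjusted p = 0.00653). All 4 called falls were of 2-fold or more, and 2.09% of tested loci were both called lower and fell by that much.

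**Figure D2:**
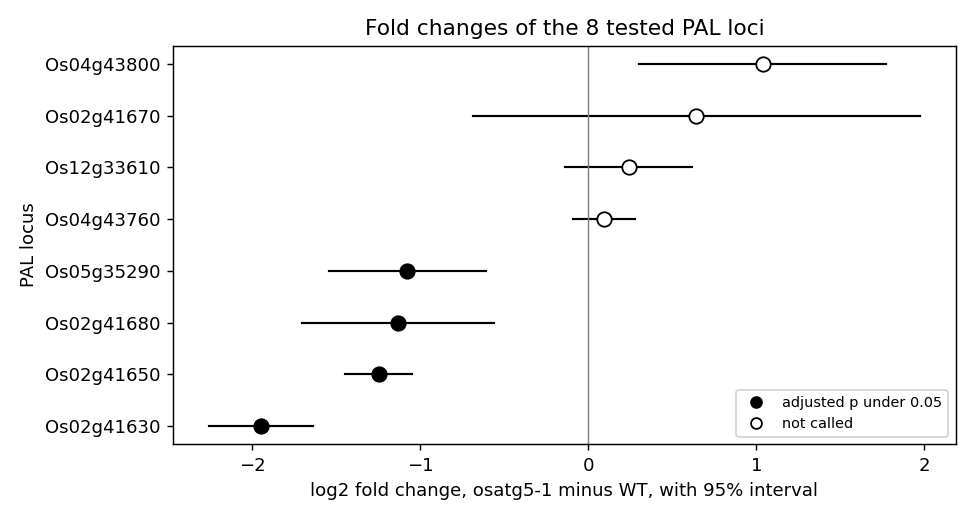
Log2 fold change (osatg5-1 minus WT) of the 8 tested PAL loci from edgeR's quasi-likelihood fit, with 95% intervals (filled points, adjusted p under 0.05; open points, not called). The 4 called loci lie between -1.95 and -1.08. The interval of LOC_Os04g43800, 0.30 to 1.77, lies above 0 although its adjusted p is 0.0576.

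Neither locus of the chromosome 4 pair was called. The WT libraries held LOC_Os04g43760 at 74.3, 82.9 and 68.3 CPM, and the osatg5-1 libraries at 84.4, 76.6 and 79.8 CPM, with overlapping groups. Its log2 difference was 0.09 ± 0.08 (SE, edgeR adjusted p = 0.493). The 95% interval of the ratio of osatg5-1 to WT ran from 0.940 to 1.21, which does not reach the size of the called falls. In WT leaves this locus and LOC_Os02g41630 were at nearly the same level, 25.6 ± 2.65 and 25.0 ± 1.14 FPKM (SD, n = 3), and in osatg5-1 leaves they were at 28.3 ± 1.39 and 6.73 ± 1.48 FPKM.

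LOC_Os04g43800 was the PAL locus with the highest ratio of osatg5-1 to WT. WT libraries were at 10.8, 31.2 and 37.0 CPM and osatg5-1 libraries at 46.2, 56.2 and 59.4 CPM. Every mutant library was above every WT library, but WT replicate 1 was far below the other 2 WT libraries. The osatg5-1 level was 2.05 times the WT level (95% interval 1.24 to 3.41; log2 difference 1.04 ± 0.33, SE), with an unadjusted p of 0.0102 and an edgeR adjusted p of 0.0576. Without WT replicate 1 the log2 difference shrank to 0.66 and was called (adjusted p = 0.00677). Without WT replicate 3 it was 1.36 and was called (adjusted p = 0.0305). With any one of the other 4 libraries left out it was not called. The log2 difference was above 0 under each alternative run. The within-library ratio of LOC_Os04g43800 to LOC_Os04g43760 was 0.140, 0.361 and 0.520 in WT and 0.527, 0.706 and 0.716 in osatg5-1. The highest WT ratio came close to the lowest mutant ratio. The two-sided exact permutation test gave p = 0.1, the smallest possible and the value that any groups without overlap give.

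The last 2 loci differed in level. Among loci with a mean FPKM above 0, 59.1% had a lower mean than LOC_Os12g33610 and 10.6% a lower mean than LOC_Os11g48110. For LOC_Os12g33610 the WT values were 8.07, 8.20 and 11.9 CPM and the osatg5-1 values 12.9, 10.5 and 9.90 CPM. The genotypes overlapped, and the ratio of osatg5-1 to WT was 1.18 with a 95% interval from 0.908 to 1.54 (edgeR adjusted p = 0.385). LOC_Os11g48110 had 4, 0 and 5 counts in the WT libraries and 0 in each osatg5-1 library. It was too low for the test, and with the filter on low counts removed its adjusted p was 0.214 (edgeR). In a single library, 3 counts correspond to 0.0762 to 0.0970 CPM of total counts, so its transcript was at or near the limit of detection in these leaves.

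The leading PAL transcript was a different one in each genotype. In WT leaves LOC_Os02g41650 led, in every library and without overlap, with 1.99 times the mean FPKM of LOC_Os04g43760. LOC_Os04g43760 and LOC_Os02g41630 came next and overlapped. LOC_Os02g41680 at 10.1 ± 1.38 FPKM and LOC_Os04g43800 at 8.60 ± 4.46 FPKM overlapped, and the first had the higher level in 1 of 3 WT libraries, replicate 1. LOC_Os05g35290, at 5.03 ± 0.905 FPKM, overlapped LOC_Os04g43800 (SD, n = 3). LOC_Os12g33610, at 3.45 ± 0.783 FPKM, overlapped LOC_Os05g35290 and lay far above LOC_Os02g41670, without overlap. In osatg5-1 leaves LOC_Os04g43760 led in all 3 libraries, with 1.30 times the mean FPKM of LOC_Os02g41650. LOC_Os04g43800, at 18.3 ± 2.30 FPKM, came after LOC_Os02g41650. The pair overlapped only through osatg5-1 replicate 3, at 19.7 FPKM for LOC_Os02g41650, a deposited value that is low for its count. Recomputed from counts it was 20.8 FPKM, above the 20.0 FPKM of LOC_Os04g43800, and the overlap was gone. The mean FPKM of LOC_Os04g43800 was 2.71 times that of LOC_Os02g41630, without overlap. LOC_Os02g41630 overlapped LOC_Os02g41680 (4.76 ± 1.93 FPKM), which in turn overlapped LOC_Os12g33610 (4.22 ± 0.608 FPKM). LOC_Os05g35290 had a lower mean, 2.45 ± 0.709 FPKM (SD, n = 3). It did not overlap LOC_Os12g33610, but it did overlap LOC_Os02g41680, which was at 2.55 FPKM in osatg5-1 replicate 1.

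Summed over the 9 loci, PAL transcripts stood at 119, 128 and 139 FPKM in the WT libraries and at 84.4, 90.1 and 85.5 FPKM in the osatg5-1 libraries. The mutant mean was 0.673 times the WT mean, and no library of one genotype reached the range of the other. The summed levels and their ratios carry no test, since the members were chosen with results of these data known. The chromosome 2 run alone went from 86.1 ± 6.80 to 33.5 ± 3.12 FPKM. The chromosome 4 pair stood at 34.2 ± 4.91 FPKM in WT and at 46.5 ± 1.41 FPKM in osatg5-1 (SD, n = 3 each). The run thus made up 63.4% to 69.9% of the summed PAL level in WT libraries and 36.3% to 41.1% in osatg5-1 libraries. The chromosome 4 pair made up 24.2% to 30.2% and 51.1% to 56.3%. Within the pair, LOC_Os04g43760 averaged 25.6 FPKM in WT and 28.3 FPKM in osatg5-1. LOC_Os04g43800, which was not called, averaged 8.60 and 18.3 FPKM, with WT replicate 1 at 3.55 FPKM. The ratio of the chromosome 2 sum to the chromosome 4 sum was 2.89, 2.10 and 2.67 in WT and 0.714, 0.803 and 0.645 in osatg5-1. Chromosome 2 loci outweighed the chromosome 4 pair in every WT library, and the pair outweighed them in every mutant library.

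**Figure D3:**
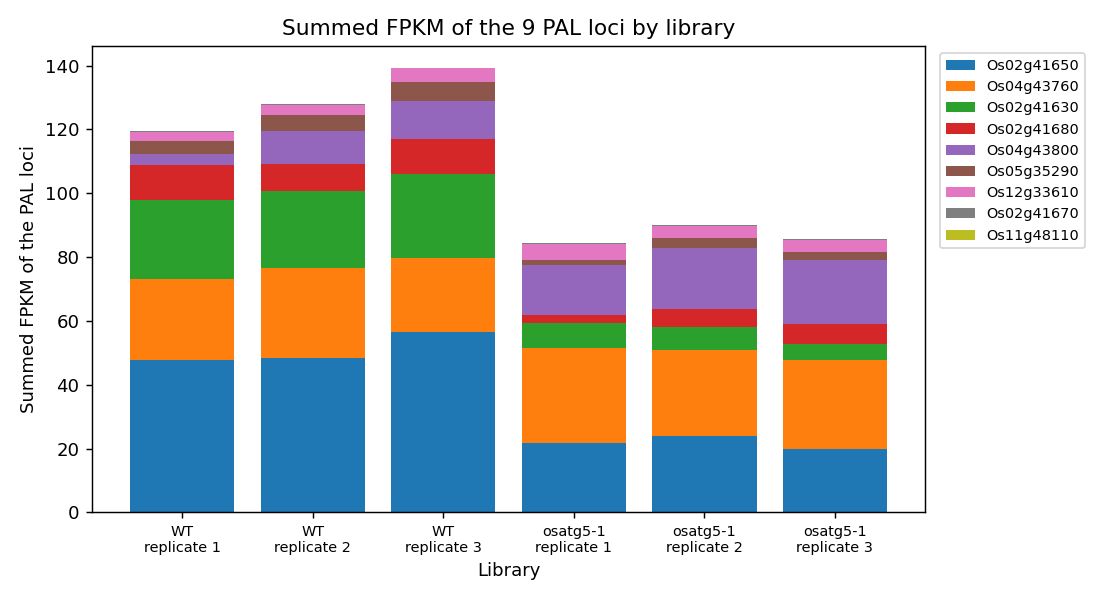
Summed FPKM of the 9 PAL loci in each of the 6 libraries, with each locus as a coloured segment in the order of its mean WT level. The bars are 119 to 139 FPKM high in WT and 84.4 to 90.1 in osatg5-1. The segments of LOC_Os02g41650 and LOC_Os02g41630 shrink while that of LOC_Os04g43760 keeps a similar height. The segment of LOC_Os04g43800, a locus that was not called, grows from a mean of 8.60 to 18.3 FPKM.

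The genotypes did not overlap at 5 of the 8 tested PAL loci. WT was higher at the 4 called falls and osatg5-1 at LOC_Os04g43800. Over all tested loci 35.4% did not overlap, 17.8% with WT higher and 17.6% with osatg5-1 higher. The same 5 were separate in CPM, in CPM of library totals and in FPKM. The 4 falls were called, in the same direction, under each of the 15 alternatives run, including each library left out in turn. Their highest adjusted p over those alternatives was 0.000240 for LOC_Os02g41630, 0.000188 for LOC_Os02g41650, 0.0422 for LOC_Os02g41680 and 0.0271 for LOC_Os05g35290.

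**Figure D4:**
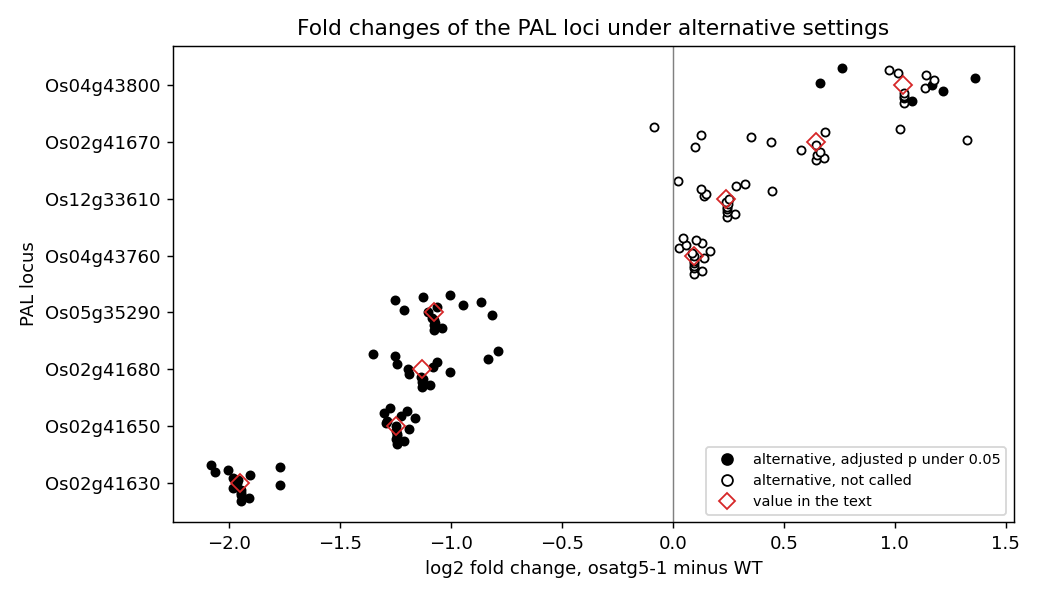
Log2 fold change (osatg5-1 minus WT) of the tested PAL loci under the alternative scalings, filters, tools and left-out libraries (black, adjusted p under 0.05; open, not called), with the value given in the text as a red diamond. The 4 falling loci keep to the left of 0 and stay called, LOC_Os04g43800 stays right of 0 and is called under 7 of 15 alternatives, and LOC_Os02g41670 ranges from -0.08 to 1.32.

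Most loci next to the PAL loci were unread or not called. Within 5 listed loci on each side of a member, and between members of the chromosome 2 run and of the chromosome 4 pair, lie 49 other loci. Of these, 25 had 0 counts in all 6 libraries, 18 were tested, 1 rose and 1 fell, where 16.4% of all tested loci were called in either direction. The transcript that fell, LOC_Os02g41590, precedes the chromosome 2 run. It went from 35.2, 35.9 and 42.2 CPM in WT to 17.4, 20.8 and 20.0 CPM in osatg5-1 (log2 fold change -0.96 ± 0.10, SE, edgeR adjusted p = 0.000191). The one that rose, LOC_Os04g43820, follows LOC_Os04g43800 and was rarely read, at 9, 12 and 16 counts in WT and 46, 37 and 35 in osatg5-1 (log2 fold change 1.47 ± 0.38, SE, edgeR adjusted p = 0.0272). The locus listed between LOC_Os02g41630 and LOC_Os02g41650 had 0 counts in all 6 libraries. Between the 2 chromosome 4 members, 2 of 3 loci had 0 counts, and LOC_Os04g43770 averaged 37.2 ± 4.69 CPM in WT and 34.1 ± 1.71 CPM in osatg5-1 (SD, n = 3 each; edgeR adjusted p = 0.430, not called).

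Among 11788 other tested loci of at least 10 CPM, the 2 whose levels followed LOC_Os02g41650 most closely over the 6 libraries were LOC_Os12g06870 and LOC_Os08g06100. Likeness was measured as the Pearson correlation of log2(CPM + 1), 0.999 for each. The 6 points fall into 2 genotypes, so any locus that fell evenly scores high, and 472 loci had a correlation above 0.95. LOC_Os08g06100 had WT values of 174, 177 and 223 CPM and osatg5-1 values of 57.1, 71.8 and 58.9 CPM (log2 fold change -1.61 ± 0.12, SE, edgeR adjusted p = 2.50e-05). As at LOC_Os02g41650, WT replicate 3 was the highest WT library and osatg5-1 replicate 2 the highest mutant library. LOC_Os08g06100 was picked for its correlation over these same 6 libraries, so this shared order follows from the choice and adds no further likeness. LOC_Os12g06870 had WT values of 25.8, 25.8 and 29.0 CPM and osatg5-1 values of 13.6, 14.5 and 12.8 CPM (log2 fold change -0.98 ± 0.09, SE, edgeR adjusted p = 0.000104).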

How the data were processed

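The mRNA of 3 WT and 3 osatg5-1 leaf samples was sequenced from stranded libraries, per the labels' protocols. The authors deposited raw counts per locus and, for the same loci, FPKM values, 1 column per library. HISAT2 and the build IRGSP-1.0 are named in the submitters' processing notes. How reads were counted, on which strand and with what treatment of reads shared by similar copies is not stated in the labels, notes or headers. Loci passing filterByExpr (23074) were fitted with edgeR 4.0.16 in R 4.3.3 (TMM, quasi-likelihood test, genotype as the only term, Benjamini-Hochberg adjustment over all of them). The standard error is the log2 fold change divided by the square root of F, and 95% intervals use the fit's degrees of freedom. The fitting steps were run on counts simulated with the dispersions of these libraries and no reads shared between loci. That run checks the code and does not bear on the PAL results. Totals were 30927816 to 39351357 counts. In each library 2.58 to 2.83 times as many loci had 2 counts as had 1, so single counts may not be independent reads, and the floor of 3 counts covers counting error only. Alternatives used DESeq2 1.42.0, limma 3.58.1 (voom, and log2(FPKM + 1)) and other scalings and filters. The members, lists and tests were chosen with earlier results of these data known. By the naming rule, all 9 members, called neighbours and the 2 loci most like the most abundant member are given by ID. The reference table (ASM3414082v1) matched 0 of the 9 PAL loci and 0 of 19 locus numbers listed for later steps of the pathway, so the 19 were not used as a list here; 1 of them is given by ID because the likeness rule named it. Protein and promoter sequences were not used here.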

Additional observations from a re-analysis of the deposited data

How the results depend on the processing

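The count of 4 PAL loci called lower was 4 under each alternative, and that of all called loci lay between 3638 and 4153 when the scaling, the filter or the tool was changed and ranged from 2567 to 3500 with 1 library left out. The count of PAL loci called higher, 0, became 1 (LOC_Os04g43800) with library-size scaling, no filter, limma-voom and the replicate block, each with 1. It ranged from 0 to 1 with 1 library left out, and was 1 with WT replicate 1 and osatg5-1 replicate 1 both left out, an alternative added after the data had been seen. The cause was not tested. That last setting also reversed LOC_Os02g41670, from a log2 difference of 0.64 to -0.0837. The ratio of summed PAL levels, 0.673, was 0.651 in summed CPM. With the replicate block 3765 loci were called, and LOC_Os04g43800 had a log2 difference of 1.17 (adjusted p = 0.00894). The numbers were not treated as pairs, since over all tested loci the deviations of libraries that share a number correlated at 0.0669, -0.0156 and 0.152. Of 6 libraries, 3 correlated best with their own number. In CPM, replicate 1 was the lowest library of both genotypes at LOC_Os04g43800 and LOC_Os05g35290, but at no other tested PAL locus. Library-size scaling moved the median log2 fold change from 0.0016 to 0.0381. LOC_Os02g41670 and LOC_Os11g48110 rest on too few counts for any statement on direction.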

Other observations

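The deposited FPKM and counts of LOC_Os02g41650 did not keep the same proportion in osatg5-1 replicate 3. The length implied by count, total and FPKM was 3135 bases there and 2961 to 3014 bases in the other 5 libraries, whereas that of LOC_Os02g41630 was 2949 bases there and 2927 to 2988 bases elsewhere. The FPKM of LOC_Os02g41650 in that library, 19.7, is therefore low for its count by a few percent. Recomputed from counts at the median implied length of the locus it is 20.8, and the ratio to LOC_Os02g41630 in that library is 4.12 in place of 3.91. The deposited value also enters the chromosome 2 sum, the shares and the order of levels, but not the tests on counts.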
